A study of Arabidopsis thaliana with 6 samples.

Results

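Glutathione transferase genes of Arabidopsis thaliana were followed across shoots in which the transcription factor EBE had been switched on, and across matching wild-type shoots. The members were all probe sets that the platform annotation ties to 1 gene with a glutathione transferase symbol (GST or ATGST with a class letter and number, or DHAR with a number), and 14 probe sets for 14 loci met this rule, out of 22746 probe sets tested. The reference gene table names 52 genes of these classes, so the 14 are a sample of the family and not the whole of it. They were 11 tau class genes (GSTU15, GSTU16, GSTU18, GSTU20 to GSTU23 and GSTU25 to GSTU28), 2 phi class genes (GSTF4 and GSTF13) and 1 lambda class gene (GSTL3). No DHAR, zeta or theta gene was among them. The other family members were not analysed here.

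Both groups were shoots of 3-week-old Col-0 background seedlings. One was EBE-XVE line 14, which carries EBE, an AP2/ERF family factor, under an estradiol-inducible system, and the other was WT Col-0, and each had 3 arrays. Seedlings of both genotypes were kept for 16 h in shaken liquid medium and then given 2 µM β-estradiol, and shoots were taken 45 min later. The series asked which genes respond early to EBE. There was no array without estradiol, and the inducible construct was represented by 1 line, so what belongs to the line and what belongs to EBE cannot be told apart.

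Glutathione transferases join the tripeptide glutathione to reactive, electrophilic compounds, which marks them for transport into the vacuole and breakdown. The tau and phi classes are large in plants and are known for herbicide detoxification and for strong induction by stress, oxylipins and foreign chemicals. Lambda class enzymes act mainly in thiol transfer, which removes glutathione from bound molecules.

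All values are log2 signals, so a difference of 1 is 2-fold. Before any result on the family, 2 features of the arrays have to be given. EBE read 8.55, 7.21 and 3.19 in EBE-XVE replicates 1, 2 and 3 and 4.26, 2.98 and 3.02 in WT, so the array labelled EBE-XVE replicate 3 showed no raised EBE. The replicate 1 arrays of both genotypes stood apart, with a median signal of 5.38 and 5.47 against 4.44 to 4.50 on the other 4. Of 16 listed shoot marker genes 3 were measured (LHCB4.1, PSAN and RCA), and none of their values fell below 11.99 on any array.

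The probe sets of the family fell into bright and dim ones. Signals of GSTU16, GSTU18, GSTU20, GSTU27 and GSTL3 lay above the array median on all 6 arrays. Those of GSTF13, GSTU15 and GSTU28 lay below the lower quartile (2.50 to 2.67) on all 6. On every array 7 members were below the median, namely GSTF13, GSTU15, GSTU28, GSTU21, GSTU22, GSTU23 and GSTU26. GSTF4 and GSTU25 were below it on 5 arrays. The deposited values carry no detection call, so what such dim probe sets could show is unknown. All 14 members entered the fits, since no filter on low values was used. The lowest and highest arrays were less than 1 log2 unit apart for 7 members, namely GSTF13, GSTU15, GSTU20, GSTU21, GSTU22, GSTU23 and GSTU28.

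**Figure D1:**
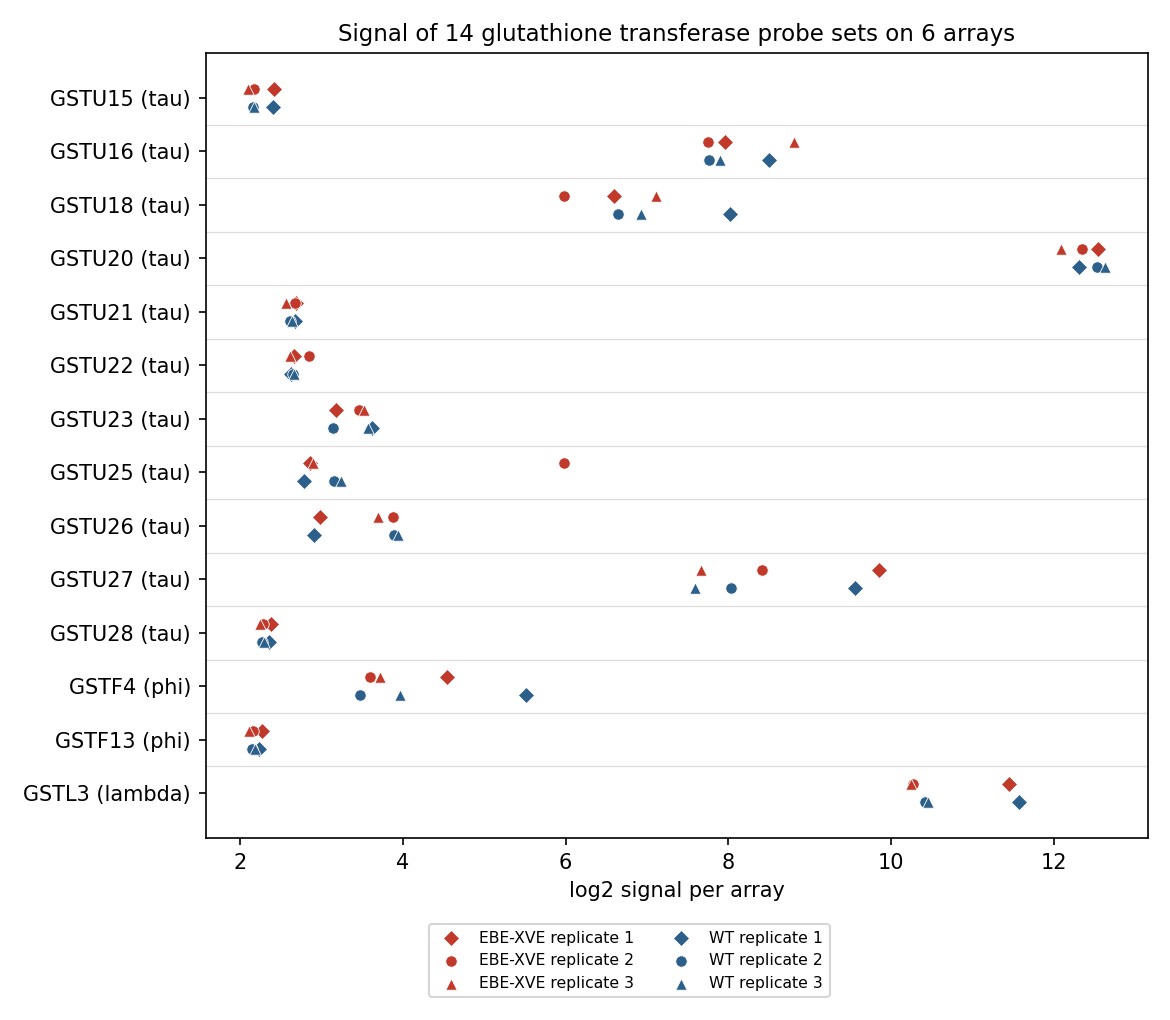
Log2 signal (x axis) of the 14 glutathione transferase probe sets (rows, with class in brackets) on each of the 6 arrays. Colour gives the genotype and the marker shape the replicate number, and each point is 1 array. GSTU25 stands out at 5.98 in EBE-XVE replicate 2, and GSTU27 and GSTL3 show both replicate 1 arrays above the other 4.

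No glutathione transferase gene passed the test between EBE-XVE and WT, whichever its class. In limma with a mean-variance trend in its eBayes step and Benjamini-Hochberg adjustment over all probe sets, 0 of 14 were called higher and 0 lower at an adjusted p under 0.05, and the share over all probe sets was 0.0% in each direction. None of the 14 had an unadjusted p under 0.05, where 0.347% of all probe sets did. EBE itself did not pass this test either, at 2.90 (SE 1.38, unadjusted p = 0.081 in limma). The fit has no replicate term, so the replicate 1 shift stays in its SE. For GSTU27 that SE was 0.74, against 0.14 with a replicate block. A lack of calls in this fit therefore does not show that a gene did not respond. The 3 EBE-XVE values did not lie wholly above or wholly below the 3 WT values for any of the 14, against 1.38% of all probe sets.

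The differences of the family centred on 0. The median difference of EBE-XVE from WT was -0.0095 over the 14 members, with 5 above 0 and 9 below, beside -0.0044 over all probe sets, of which 40.1% were above 0. After quantile normalization 7 of the 14 were above 0 and after median centring 8, so the side of 0 rests on the scaling. All probe sets moved likewise, with 12639 and 15610 of 22746 above 0 under these 2 scalings. The 11 tau members had a median of -0.0060, with 5 above 0 and 6 below as deposited. Both phi members were below 0, at -0.37 (SE 0.59) for GSTF4 and -0.0080 (SE 0.053) for GSTF13, which turned above 0 with median centring. With 2 phi genes, 1 of them among the dimmest probe sets, a class difference from tau could not be described beyond these values. GSTL3, the lambda member, differed by -0.16 (SE 0.47).

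GSTU25 (AT1G17180) is a tau enzyme known for detoxifying the explosive TNT, and it was the member with the largest difference between the genotypes. It read 2.86, 5.98 and 2.89 in EBE-XVE replicates 1, 2 and 3, and 2.79, 3.16 and 3.25 in WT. One array, EBE-XVE replicate 2, was thus high, and the other 5 lay between 2.79 and 3.25. Group means were 3.91 ± 1.80 (SD, n = 3) and 3.07 ± 0.24 (SD, n = 3), a difference of 0.85 (SE 0.87) that did not pass in limma (adjusted p = 1.00). Without EBE-XVE replicate 2 it turned to -0.19. With replicates 2 and 3 only and the replicate block it was 1.24 and passed (adjusted p = 1.3e-06 in limma), on 1 residual degree of freedom. The prior degrees of freedom were infinite there, so this p used a variance pooled over probe sets. The spread of GSTU25 itself did not enter, and its 2 pairs in that fit, 2.83 and -0.35, differed in sign. Within pairs of the same replicate number the difference was 0.07, 2.83 and -0.35, while that of EBE was 4.29, 4.23 and 0.17. GSTU25 and EBE were hence both high in pair 2, whereas in pair 1 EBE was raised by as much and GSTU25 was not.

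The named probe sets most like GSTU25 over the 6 arrays, by Pearson correlation among 13435, were also high on that 1 array. AT3G10040, a gene on the low-oxygen list, came first with r = 0.98 and read 8.25 there and 2.59 to 3.58 on the other 5 arrays. It was the only one of 12 genes on that list with a probe set named here. WRKY22, a WRKY family transcription factor gene, had r = 0.98 and read 7.46 there against 4.12 to 5.11 elsewhere. AT5G42200 had r = 0.97 and AT1G33055 r = 0.96, and AT1G33055 read 9.05 there against 2.95 to 5.26. These correlations describe 6 arrays that share 1 extreme value. What else differed in that sample was not tested.

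GSTU22, another tau gene, was the second of these 5, with r = 0.98, but on a much smaller scale. That array read 2.85, and the other 5 were again close together, between 2.61 and 2.66. Its difference of 0.06 (SE 0.08) between the genotypes did not pass in limma (adjusted p = 1.00). GSTU26, the tau gene next to GSTU25 on chromosome 1 with no protein-coding gene between them, did not share the high value. It read 3.88 in EBE-XVE replicate 2 and 3.89 in WT replicate 2, and its pairs differed by 0.08, -0.02 and -0.25.

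GSTU18 (AT1G10360) had the lowest p of the 14, at 0.24 before adjustment in limma. Its signal was 6.60, 5.98 and 7.11 in EBE-XVE and 8.02, 6.65 and 6.92 in WT, and the groups overlapped. Means were 6.56 ± 0.56 (SD, n = 3) and 7.20 ± 0.73 (SD, n = 3), a difference of -0.63 (SE 0.48) with an adjusted p of 1.00. The difference was -0.22 without WT replicate 1, -0.34 without EBE-XVE replicate 2 and -0.24 in replicates 2 and 3 only. With replicate 1 as a batch block and the array labelled EBE-XVE replicate 3 left out it was -1.07, and it did not pass there either (adjusted p = 0.28 in limma). Within the pairs it was -1.42, -0.67 and 0.18, below 0 in the 2 pairs with raised EBE and above 0 in the other. GSTU16 had the same signs. So did all the measured shoot markers, LHCB4.1, PSAN and RCA, with -0.82, -0.55 and 0.27 for PSAN, so the signs are not particular to these transferases. How many of all probe sets share these signs was not counted, and a tie to EBE was not tested. Each of these values is a single pair, with no replicate of its own.

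GSTU16 also turned from pair to pair, with -0.55, -0.02 and 0.90. Its highest reading, 8.80, was on the array labelled EBE-XVE replicate 3, against 7.75 to 8.51 on the others. GSTU20 encodes a tau enzyme known to bind FIN219/JAR1, the enzyme that makes jasmonoyl-isoleucine. It read 12.54, 12.35 and 12.09 in EBE-XVE and 12.31, 12.53 and 12.63 in WT, and its pairs differed by 0.23, -0.19 and -0.53. GSTF4 read 4.54, 3.59 and 3.72 in EBE-XVE and 5.51, 3.48 and 3.96 in WT, with -0.97, 0.11 and -0.24 within the pairs.

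The pairs were therefore set side by side over the family. A difference of at least 2-fold in any pair was seen for 2 of 14 members, against 7.54% of all probe sets. They were GSTU18, lower in pair 1, and GSTU25, higher in pair 2. Over all probe sets, 3.53% were at least 2-fold lower in pair 1 and 1.52% at least 2-fold higher in pair 2. The family medians were 0.02, 0.02 and -0.07 in pairs 1, 2 and 3, beside 0.03, 0.01 and -0.05 over all probe sets. Members above 0 numbered 9 in pair 1, 9 in pair 2 and 3 in pair 3, while 71.8%, 67.6% and 28.4% of all probe sets were above 0, so most members lay on the same side as most probe sets.

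Of the 14, 2 kept their sign in every pair, against 14.5% of all probe sets. GSTU27 differed by 0.30, 0.38 and 0.07, and 8.23% of all probe sets were likewise above 0 in every pair. GSTL3 differed by -0.11, -0.15 and -0.21, and 6.23% were likewise below 0. Neither passed in limma (adjusted p = 1.00), and with the replicate number as a block their unadjusted p was 0.13 and 0.25 (adjusted p = 1.00). With all 6 arrays the replicate block brought no call in any member. The pairing of replicates 2 and 3 rests on the numbers in the titles, since the arrays did not tell them apart. GSTU27 read 7.66 in EBE-XVE replicate 3, below 8.04 in WT replicate 2, so its kept sign and its block p depend on that pairing. GSTL3 read 10.26 and 10.24 in EBE-XVE replicates 2 and 3, below both 10.41 and 10.45 in WT.

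**Figure D2:**
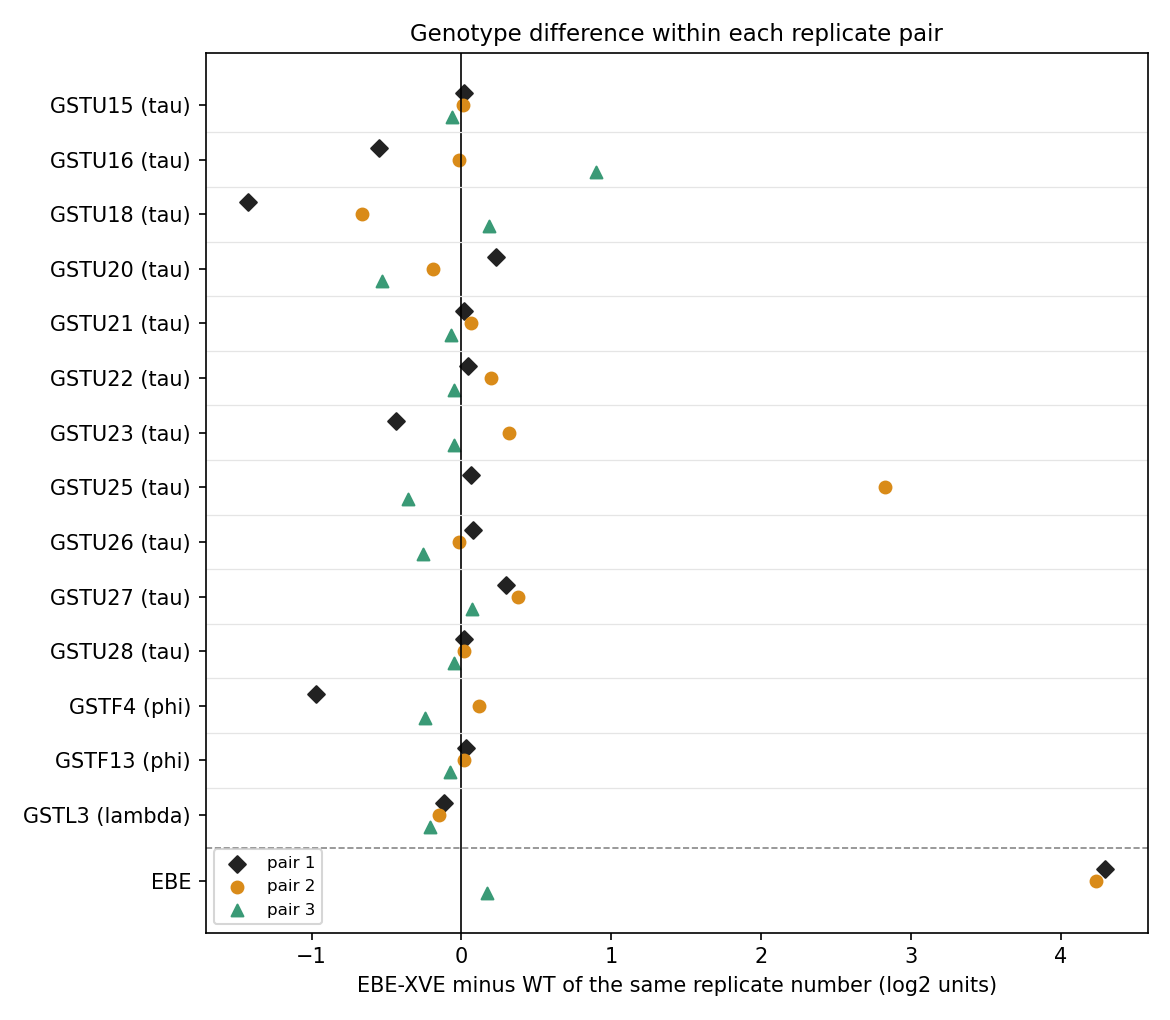
EBE-XVE minus WT of the same replicate number, in log2 units (x axis), for each glutathione transferase gene and, below the dashed line, for EBE. Each point is 1 pair of arrays. GSTU25 reaches 2.83 in pair 2 alone, GSTU18 runs from -1.42 to 0.18, and most members lie near 0.

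Other members differed between replicate 1 and replicates 2 and 3. The sign of that difference was the same in both genotypes except in GSTU16, at -0.32 in EBE-XVE and 0.67 in WT, GSTU20, at 0.32 and -0.27, and GSTU23, at -0.32 and 0.26. This contrast was chosen with the shift of replicate 1 already known, and it was fitted over 2 against 4 arrays with genotype as a term. It was called for 6 of 14 members higher and 1 lower in replicate 1, while limma called 45.5% of all probe sets higher and 14.1% lower. Of the members 10 were above 0, where 69.7% of all were, and 6 lay wholly above the other 4 arrays and 2 wholly below, where 52.3% and 18.3% did. These counts were near or below the background. The median of all probe sets was 0.28 as deposited, -0.05 after quantile normalization and -0.67 after median centring of the arrays, so each gene has to be read against these shifts. After quantile normalization 5 members were called higher and 1 lower, against 22.7% and 36.6% of all probe sets, and after median centring 1 and 9, against 9.83% and 59.9%. What set replicate 1 apart was not tested.

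GSTU27 (AT3G43800) was the member raised most in replicate 1. There it read 9.86 in EBE-XVE and 9.56 in WT, with 8.42 and 8.04 in replicate 2, and 7.66 and 7.59 in replicate 3. Both replicate 1 values were above all others, and the genotypes lay close together in each replicate. The difference was 1.78 (SE 0.25), which is 3.44-fold (adjusted p = 0.0023 in limma). It was smaller at 1.17 after quantile normalization (adjusted p = 0.0175 in limma) and at 0.83 after median centring (adjusted p = 0.0197), and its adjusted p lay between 8.8e-04 and 0.0202 over all scalings, fits and arrays left out.

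GSTU26 (AT1G17190) went the other way. It read 2.98 and 2.91 in replicate 1 of EBE-XVE and WT, against 3.88 and 3.89 in replicate 2 and 3.69 and 3.94 in replicate 3. The 2 replicate 1 arrays were thus below the other 4, with no overlap, though all 6 values lay below the median of their array. The difference was -0.91 (SE 0.10), a 1.87-fold lower signal with an adjusted p of 0.0010 in limma, and it was -1.36 after quantile normalization and -1.86 after median centring. Its adjusted p lay between 1.5e-07 and 0.0098 over all scalings, fits and arrays left out, but as deposited it fell short of a 2-fold minimum. Median centring lowers every replicate 1 difference by the same amount, so it could only make a lower estimate lower. Under all 3 scalings together, 9.31% of all probe sets were called higher and 13.6% lower, and GSTU27 and GSTU26 were the members in these sets. As deposited 14.1% were called lower, so nearly all lower calls held under the 3 scalings, and holding there sets GSTU26 little apart. 

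GSTU25, the neighbour of GSTU26, was also below every array of replicates 2 and 3 in replicate 1, with 2.86 and 2.79 against 2.89 to 5.98. Its difference of -0.997 (SE 0.84) did not pass as deposited (adjusted p = 0.35 in limma) and was -0.25 without EBE-XVE replicate 2. With median centring it was -1.95 and passed (adjusted p = 0.046 in limma), where 59.9% of all probe sets were called lower.

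GSTL3 (AT5G02790), the lambda member, read 11.46 and 11.57 in replicate 1 of EBE-XVE and WT, 10.26 and 10.41 in replicate 2, and 10.24 and 10.45 in replicate 3. Its difference of 1.17 (SE 0.10) had an adjusted p of 4.4e-04 in limma, but with median centring it was 0.21 and did not pass (adjusted p = 0.19). GSTF4 (AT1G02950) was 1.34 (SE 0.25) higher in replicate 1 (adjusted p = 0.0067 in limma). That call was lost after quantile normalization, at 0.45 (adjusted p = 0.19), and after median centring, at 0.38 (adjusted p = 0.17). The rise of GSTF4 was 1.79 in WT and 0.88 in EBE-XVE. The test of this difference gave -0.91 (unadjusted p = 0.046, adjusted p = 0.53 in limma). That interaction was called for 0 of 14 members, against 1.18% of all probe sets.

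The remaining calls were in the 3 probe sets below the lower quartile on every array, and they were small. GSTU15 was higher in replicate 1 by 0.26 (SE 0.03), GSTF13 by 0.11 (SE 0.03) and GSTU28 by 0.09 (SE 0.02). Their adjusted p-values in limma were 6.6e-04, 0.0173 and 0.0150. With median centring all 3 turned, to -0.69, -0.85 and -0.86, so their direction rests on the scaling. The calls of GSTF13 and GSTU28 were also lost without the mean-variance trend (adjusted p = 0.096 and 0.094 in limma) and without EBE-XVE replicate 1 (adjusted p = 0.14 and 0.11), and that of GSTU28 with the replicate block (adjusted p = 0.054). GSTU16, GSTU18, GSTU20 and GSTU21 were not called as deposited, with 0.18, 0.65, 0.03 and 0.06, and each was below 0 under both other scalings. GSTU22 and GSTU23 were at -0.05 and -0.03.

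**Figure D3:**
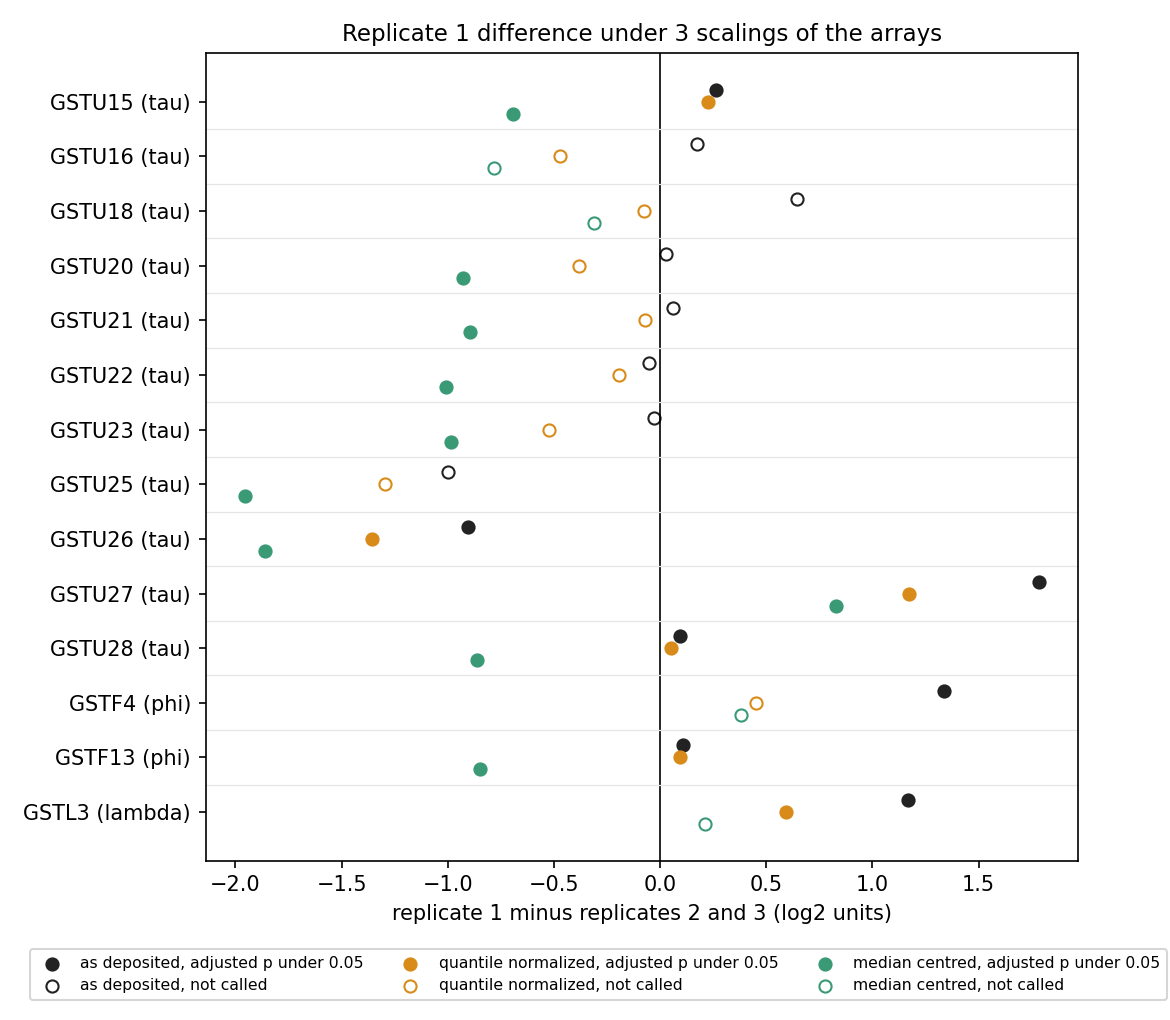
Replicate 1 minus replicates 2 and 3, in log2 units (x axis), for each glutathione transferase gene with the arrays as deposited, quantile normalized or median centred. Filled points had an adjusted p under 0.05 in limma and open points did not. GSTU27 stays above 0 and GSTU26 below 0 with filled points under all 3 scalings, while GSTU15, GSTU28 and GSTF13 change side with median centring.

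A root marker moved with replicate 1 as well. Of 13 listed root markers 4 were measured. PYK10, a β-glucosidase gene of root and hypocotyl, read 12.14 and 12.26 in replicate 1 against 8.58 to 9.21 on the other arrays. The summed level of the 4 was 12.15 and 12.26 against 8.63 to 9.24. It adds unlogged signals, so it follows PYK10 almost alone. The root hair genes EXPA7 and EXPA18, and AT5G17820, read 1.75 to 2.24 on all 6 arrays. In replicate 1 these 3 were lower as deposited, by -0.37, -0.039 and -0.42, and EXPA18 turned to 0.037 after quantile normalization. The summed level of the 3 shoot markers was 14.8 and 15.3 in replicate 1 and at least 14.5 on the others. The part of these differences in the glutathione transferase values was not tested. In whole shoots, fewer cells of a type and less RNA per cell cannot be told apart.

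Other genes of glutathione metabolism were sparsely covered. None of 10 listed genes of glutathione synthesis and turnover, 5 conjugate transporters and 6 TGA factors had a probe set named here. TGA factors are bZIP proteins that are known to bind promoters of some tau genes. Of 18 listed redox enzymes of the glutathione and ascorbate cycle, 5 were measured, and none was called between the genotypes. In replicate 1, 4 of the 5 were called higher and 0 lower, with a median of 0.97, where 45.5% of all probe sets were called higher with a median of 0.28. GR1, a glutathione reductase that restores reduced glutathione, rose by 1.29 (SE 0.22, adjusted p = 0.0044 in limma), and GR, the organellar reductase, by 0.81 (SE 0.11, adjusted p = 0.0022). After quantile normalization GR1 alone was called, at 0.71, where 22.7% of all were called higher, and with median centring none was, where 9.83% were.

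Of 14 listed genes that are commonly induced with tau transferases by foreign chemicals, 5 were measured, and again none was called between the genotypes. In replicate 1, 4 of these 5 were called lower and 0 higher, with a median of -1.93, where 14.1% of all probe sets were called lower. The count was 4 after quantile normalization, where 36.6% of all were lower, and 5 after median centring, where 59.9% were. UGT73C1, a glycosyltransferase gene, read 4.52 and 4.01 in replicate 1 of EBE-XVE and WT against 6.70 to 7.61 on the other arrays, a difference of -2.99 (SE 0.17, adjusted p = 1.3e-04 in limma). AER, an alkenal reductase that detoxifies reactive carbonyls, read 8.57 and 8.58 against 10.28 to 11.06, a difference of -1.93 (SE 0.22, adjusted p = 0.0012). Among the transferases, GSTU26 was lower in replicate 1 as these genes were, and GSTU27 was higher.

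Between the genotypes, TAPX, a thylakoid ascorbate peroxidase gene, had the lowest p of the redox enzymes, at 0.37 before adjustment in limma, with a difference of -0.50 (SE 0.52). SAPX, the stromal enzyme, differed by 0.38 (SE 0.70). On the list of chemically induced genes, AT2G04050 differed by -0.31 (SE 0.51) and UGT73C1 by 0.63 (SE 1.18). All 4 had an adjusted p of 1.00 in limma. UGT73C1 was above 0 in every pair, at 0.51, 0.49 and 0.88, as 8.23% of all probe sets were. TAPX, SAPX and AT2G04050 changed sign between pairs. With the replicate block the SE of UGT73C1 was 0.18 and its unadjusted p 0.014 in limma, but it did not pass after adjustment.

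The tau genes on chromosome 1 lie in groups, which allowed neighbours to be set side by side. GSTU20, GSTU21, GSTU22 and GSTU23 follow each other with no protein-coding gene between them in the reference gene table. Their genotype differences were -0.16 (SE 0.18), 0.0049 (SE 0.06), 0.06 (SE 0.08) and -0.06 (SE 0.19). They were not equally measured, with means over the arrays of 12.41, 2.64, 2.68 and 3.42. GSTU21, GSTU22 and GSTU23 were below the median of every array, so their small differences do not show a lack of response. Within pair 1 GSTU23 was at -0.44 and GSTU20 at 0.23, and within pair 2 GSTU23 was at 0.32 and GSTU20 at -0.19. GSTU15 and GSTU16, with 3 protein-coding genes between them, differed between the genotypes by -0.01 (SE 0.11) and 0.11 (SE 0.37). GSTU20 and GSTU23 were the 2 of 14 members whose replicate 1 value lay beyond both others in opposite directions in the genotypes, against 8.66% of all probe sets. Tandem copies are alike in sequence, and how far their probe sets share signal was not tested.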

How the data were processed

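Shoot RNA of 6 samples was measured on Affymetrix ATH1 arrays. The authors deposited 1 table of normalized log2 signals, and per the submitters' processing notes GCRMA and RMA were used, with no version or role stated. No source used here names the log base, and the span of the values was taken to mean log2. Groups and replicate numbers came from the titles, which call the replicates biological. Nothing says that they were separate cultures, so p-values measure the spread between these samples.

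Of 22810 probe sets, 64 controls were left out. Names came from the platform annotation and the TAIR10.1 gene table (13513 probe sets with 1 symbol, 503 with several, 8730 unnamed here). Where a locus had several probe sets, that of the highest mean was to be used, and each member locus had 1. All values were fitted with limma 3.58.1 in R 4.3.3, tested on simulated data, with no further normalization. Members, lists and contrasts were chosen with earlier results of these data known. All 14 members are named. Of each list the 2 genes with the lowest p per contrast are named, and for GSTU25 the 5 named probe sets of highest correlation. Sequences were not used here.

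Deviations from the group means correlated at 0.79, 0.54 and 0.58 across probe sets within pairs 1, 2 and 3, each above the 0.1 taken here to mean paired numbers. The crossed values were as high, at 0.55 for EBE-XVE 2 with WT 3 and 0.60 for EBE-XVE 3 with WT 2, so the check sets replicate 1 apart and does not tell replicates 2 and 3 from each other. The number of arrays limits the precision.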

Additional observations from a re-analysis of the deposited data

Results flagged for a closer look

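In 2 tau genes the replicate 1 array lay beyond both other arrays in each genotype, but in opposite directions, which 8.66% of all probe sets also did. GSTU20 was 0.32 above the mean of replicates 2 and 3 in EBE-XVE and -0.27 from it in WT. The difference between these was 0.588 (SE 0.24), with an unadjusted p of 0.06 and an adjusted p of 0.59 in limma's interaction term, so it did not pass. GSTU23 was at -0.32 in EBE-XVE and 0.26 in WT, a difference of -0.573 (SE 0.27), with an unadjusted p of 0.09 and an adjusted p of 0.67 in limma. Its signal lay below the median of every array. The interaction was added after the data were seen. Both genes were flagged for their opposite directions and not for their p, since GSTF4 had a lower unadjusted p of 0.046 in limma's interaction term.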

How the results depend on the processing

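Replicates 2 and 3 with a replicate block, the joint scaling and block fits of replicate 1 and the medians relative to all probe sets were chosen after the data were seen. Genotype calls stayed at 0 higher and 0 lower in all settings, each array left out included (0 to 0), except that replicates 2 and 3 with a replicate block gave 1 higher. This was GSTU25 at 1.24 (adjusted p = 1.3e-06 in limma), on 1 residual degree of freedom with an infinite prior one, so the spread of GSTU25 itself did not enter. Without the block its adjusted p was 0.91. The medians of genotype were -0.064 over the members and -0.058 over tau with the dim probe sets left out, which kept 9 members. Leaving out each array gave -0.05 to 0.04 for all members, -0.03 to 0.03 for tau and -0.41 to 0.12 for phi.

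In replicate 1 the 6 higher calls became 1 with median centring, with or without the replicate block, 3 with the dim probe sets left out and 3 at a 2-fold minimum. The 1 lower call became 9 with median centring, 10 with the replicate block added, 2 with quantile normalization and the replicate block, and 0 at a 2-fold minimum. Leaving out each array gave 4 to 8 higher and 1 lower, with 4 without EBE-XVE replicate 1 or WT replicate 2. The replicate 1 medians of all, tau and phi members were 0.10, 0.06 and 0.72. They were -0.073, -0.19 and 0.27 with quantile normalization, -0.86, -0.90 and -0.24 with median centring, and 0.18, 0.029 and 1.34 with the dim probe sets left out. Leaving out each array gave 0.082 to 0.16, 0.034 to 0.091 and 0.51 to 0.93.

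Among single genes the genotype difference was not called as deposited and reversed as follows. With median centring GSTF13, GSTU15 and GSTU28 were at 0.020, 0.017 and 0.022. With replicate 1 as a batch block and the array labelled EBE-XVE replicate 3 left out, GSTF13, GSTU15, GSTU16, GSTU26 and GSTU28 were at 0.015, 0.012, -0.29, 0.0095 and 0.0061. With quantile normalization GSTU23 and GSTU28 were at 0.040 and 0.0022. In replicates 2 and 3 GSTU21 and GSTU23 were at -0.0025 and 0.13, with or without the block. The replicate 1 difference reversed for GSTU16, GSTU18, GSTU20 and GSTU21 to -0.47, -0.075, -0.38 and -0.072 with quantile normalization and to -0.78, -0.31, -0.93 and -0.90 with median centring. GSTF13, GSTU15 and GSTU28 turned to -0.85, -0.69 and -0.86 with median centring. The added block left each of these estimates as it was.

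When each array was left out, the genotype difference ranged from -0.56 to 0.22 for GSTL3, -0.054 to 0.029 for GSTF13, -0.79 to 0.23 for GSTF4, -0.11 to 0.069 for GSTU15 and -0.21 to 0.33 for GSTU16. It ranged from -0.91 to -0.22 for GSTU18. It ranged from -0.019 to 0.046 for GSTU21, -0.0089 to 0.11 for GSTU22, -0.21 to 0.047 for GSTU23, -0.19 to 1.37 for GSTU25, -0.40 to 0.20 for GSTU26, -0.36 to 0.83 for GSTU27 and -0.042 to 0.020 for GSTU28. The replicate 1 difference ranged from -0.32 to 0.67 for GSTU16, -0.27 to 0.32 for GSTU20 and -0.32 to 0.26 for GSTU23. Without the array labelled EBE-XVE replicate 3, GSTU16 at 0.47 and GSTU18 at 0.97 passed in replicate 1. GSTF13 and GSTU28 did not pass without EBE-XVE replicate 1 or WT replicate 2. The cause was not tested for any of them. The main fit carries no block, so leaving out 1 replicate 1 array keeps the shift of the other in the genotype difference.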
